A study of Mus musculus with 30 samples.

Results

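The regions described here are genomic intervals that were listed for KLF5 and for at least 1 of the nuclear receptors VDR and RXR, but for neither KLF4 nor any of 5 bZIP factors, in 3T3-L1 cells at the start of fat cell differentiation. They were chosen by measured values, namely the deposited binding lists themselves: an interval had to stand with identical coordinates in the KLF5 list and in the VDR list, the RXR list or both, and to be absent from the lists of KLF4, ATF2, ATF7, cJun, FOSL2 and JunB. Of 34724 intervals listed for at least 1 of the 9 factors on chromosomes 1 to 19 and X, 2273 met this rule, or 6.55%. Both receptors were listed at 1102 of them, RXR without VDR at 629 and VDR without RXR at 542. They are called both-receptor, RXR-only and VDR-only regions.

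Binding was mapped by chromatin immunoprecipitation with sequencing (ChIP-seq), in which DNA cross-linked to a protein is recovered with an antibody and sequenced. 3T3-L1 is an established mouse fibroblast line that becomes fat cells after hormone treatment, so a single clonal line stands for the pre-adipocyte here. All 9 libraries came from post-confluent cells harvested 4 h after induction with 10% fetal calf serum, insulin at 1 μg per ml, the glucocorticoid dexamethasone at 1 μM and the phosphodiesterase inhibitor isobutylmethylxanthine at 0.5 mM. Each factor had 1 library, and no list from untreated cells was used, so the regions carry no comparison between conditions and no replicate error. Ligands of VDR or RXR are not named among the added agents. All the antibodies but that against KLF5, which was a gift, were bought from 1 supplier, and the labels name RXR without an isotype.

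KLF5 is a zinc-finger protein of the Krüppel-like family that binds GC-rich and CACCC-type DNA, and in this cell line it is known as an early regulator that acts on the gene of PPARγ, the master regulator of fat cells. VDR, the vitamin D receptor, binds DNA mainly as a heterodimer with RXR, the retinoid X receptor. RXR also pairs with PPARγ and with retinoic acid, thyroid hormone and liver X receptors, so that RXR can stand on DNA without VDR. KLF4 is the close relative of KLF5. The bZIP proteins form dimers on DNA. Among them FOSL2, JunB and cJun are subunits of AP-1, and ATF2 and ATF7 bind cyclic AMP response elements alone or with Jun proteins.

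Every interval was 400 bp long in the mouse build mm9, and the lists gave position alone, with no score or read number. The depth of the libraries is therefore unknown, and a factor that is not listed may have been bound below the threshold of its list. List lengths set how often each factor can be counted: 17120 intervals were kept for KLF5, 12082 for RXR, 11794 for VDR, 11547 for ATF2, 10082 for JunB, 7375 for ATF7, 6284 for FOSL2, 6175 for cJun and 5875 for KLF4. The VDR and RXR lists, which separate the classes, were of nearly equal length. No sequence, gene or motif is given for the regions, because no genome or annotation of build mm9 was used here. Intervals of shares are exact Clopper-Pearson 95% intervals, intervals of differences are Newcombe 95% intervals, and both cover counting error alone. Neighbouring regions can share the same neighbour, which these intervals leave out of account.

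Both receptors together were the most frequent state of the regions. They were listed at 48.5% of the regions (46.4 to 50.6), RXR alone at 27.7% and VDR alone at 23.8%. This was not particular to the regions. With KLF4 or a bZIP factor, and with or without KLF5, 6066 intervals held both receptors, 2138 RXR alone and 1699 VDR alone. Of the 3786 receptor intervals without KLF5, KLF4 and bZIP factors, 746 held both receptors, 1401 RXR alone and 1639 VDR alone. The share with both over all receptor intervals was not computed. The regions made up 13.3% of the KLF5 list, 13.9% of the VDR list and 14.3% of the RXR list. The counts of the regions follow from the rule and are given without a test. The absence of KLF4 and bZIP factors applied to the interval itself. A KLF4 or bZIP interval with its midpoint less than 400 bp away, so that the intervals overlapped, stood beside 50 regions (2.20%). Of these, 46 had a bZIP interval and 27 a KLF4 interval. The overlap share was not computed for all intervals. Within 0.5 kb, 6.24% of all intervals had a bZIP interval, so low values are common at this distance. The shares there were 3.81% of both-receptor, 5.72% of RXR-only and 3.69% of VDR-only regions. When an interval within 400 bp also counted as a listing, 2270 regions met the rule.

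The receptor mix differed with what else was listed. Among all intervals with KLF5 and a receptor, grouped by KLF4 and by the number of bZIP factors, the share with both receptors was lowest at the regions described here (48.5%). Without KLF4 it was 50.8% with 1 bZIP factor, 58.4% with 2, 60.4% with 3, 61.4% with 4 and 65.3% with all 5. The interval with 1 bZIP factor (48.0 to 53.7) overlapped that of the regions (46.4 to 50.6). With KLF4 it was 71.7% without bZIP factors and 91.8% with all 5. The intervals that missed the rule by 1 factor give the mix for each factor. KLF4 was the most frequent single addition, at 782 intervals, of which 71.7% held both receptors. JunB followed with 498 intervals (55.4% both), ATF2 with 315 (36.8%), cJun with 209 (63.6%), ATF7 with 114 (44.7%) and FOSL2 with 42 (54.8%). The shares with ATF2 and with ATF7 thus lay below the 48.5% of the regions. Intervals with ATF2 as the single addition were the set in which RXR alone (40.0%) was more frequent than both receptors together (36.8%).

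KLF5 was listed more often where both receptors were listed than where 1 was. Among intervals without KLF4 and bZIP factors, KLF5 was listed at 59.6% of those with both receptors (1102 of 1848), at 31.0% of those with RXR alone (629 of 2030) and at 24.9% of those with VDR alone (542 of 2181). These 3 shares were fixed by the choice of regions. The same shares were then taken at intervals the rule did not use, those with KLF4, a bZIP factor or both. There KLF5 was listed at 88.5% of both-receptor intervals (5366 of 6066; 87.6 to 89.3), at 62.1% of RXR-only intervals (1328 of 2138; 60.02 to 64.2) and at 51.3% of VDR-only intervals (872 of 1699; 48.9 to 53.7).

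Those intervals were compared within 11 strata that had the same KLF4 state and the same number of bZIP factors. Across the strata, the KLF5 share was 17.0 points higher at both-receptor than at RXR-only intervals (95% interval of the Mantel-Haenszel weighted difference 14.8 to 19.2) and 28.1 points higher than at VDR-only intervals (25.5 to 30.7). Both differences had this direction in 11 of 11 strata. RXR-only intervals exceeded VDR-only intervals by 10.1 points (7.08 to 13.1), in 10 of 11 strata. The exception was the stratum with KLF4 and 4 bZIP factors, where KLF5 was listed at 85.5% of 55 RXR-only intervals and 87.0% of 23 VDR-only intervals. The listings come from the same libraries in every stratum, so the strata are not replicates. Within a stratum a both-receptor interval also held 1 listed factor more than a single-receptor interval. KLF5 was listed more often beside more bZIP factors too. At RXR-only intervals without KLF4 its share was 45.3% with 1 bZIP factor and 61.7% with 3. Whether the receptor pair differs from any other added factor was not tested.

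**Figure D1:**
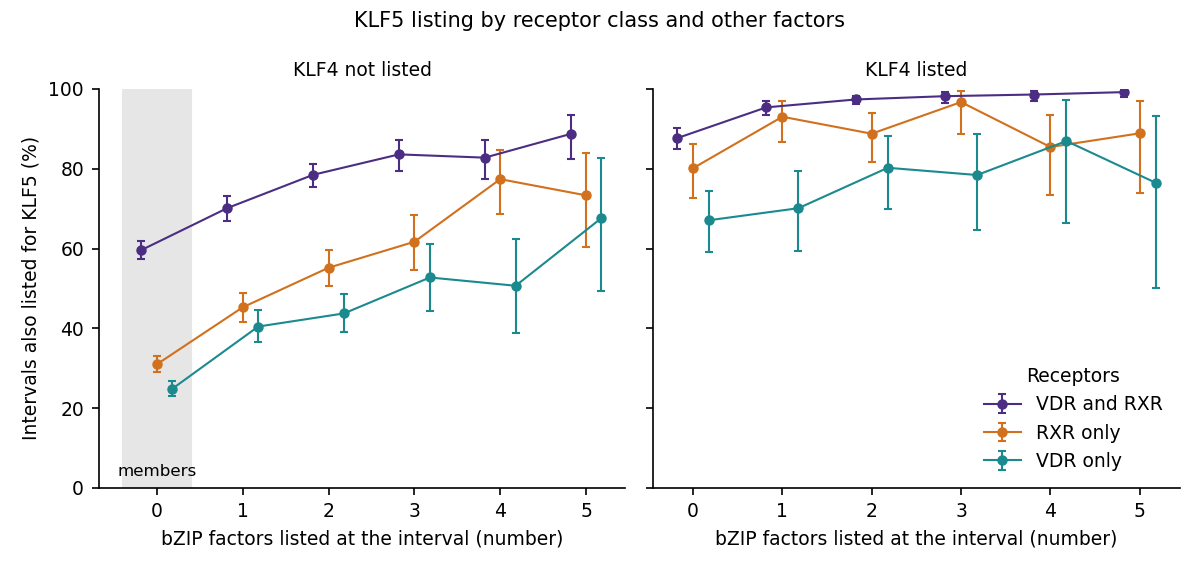
Share of intervals listed for KLF5 (percent, vertical axis) against the number of bZIP factors listed at the interval (horizontal axis), without KLF4 (left) and with KLF4 (right), for intervals with both receptors, RXR only and VDR only; bars are exact 95% intervals. The shaded values, 59.6%, 31.0% and 24.9%, are those that the choice of regions fixed, and the both-receptor points lie above the other classes at every position.

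Set by single factors, the lead of RXR over VDR was resolved beside ATF2 and KLF4. With ATF2 as the single further factor, KLF5 was listed at 56.8% of 222 RXR-only and 42.2% of 173 VDR-only intervals, 14.6 points apart (4.62 to 24.1). With KLF4 alone the shares were 80.1% of 146 RXR-only and 67.1% of 155 VDR-only intervals, 13.0 points apart (3.06 to 22.6). With ATF7 it was listed at 44.3% of RXR-only and 35.9% of VDR-only intervals. With FOSL2 it was listed at 38.7% of RXR-only and 30.4% of VDR-only intervals. Beside JunB the shares were 40.9% of 318 RXR-only and 43.0% of 214 VDR-only intervals, a difference of -2.11 points (-10.6 to 6.36). Beside cJun they were 36.6% at RXR-only and 37.9% at VDR-only intervals. The intervals of the ATF7, FOSL2, JunB and cJun differences all included 0, and no difference between factors was tested. Both-receptor intervals were above these values beside every factor, from 68.2% with cJun to 87.7% with KLF4.

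The surroundings of the regions were not used by the rule, and they separated the receptor classes. Within 10 kb of the midpoint, another listed interval of any kind stood near 65.0% of the regions (63.0 to 66.9), where 60.6% of all 34724 intervals had such a neighbour. A hotspot, meaning another interval listed for 5 or more of the 9 factors, stood near 24.3% of the regions (22.5 to 26.1), where the share of all intervals was 19.7%. A bZIP interval stood near 50.2% of the regions (48.1 to 52.2), close to the 48.4% of all intervals.

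RXR-only regions had neighbours more often than VDR-only regions. Another interval lay within 10 kb of 65.6% of both-receptor regions, 69.0% of RXR-only regions and 59.0% of VDR-only regions. A bZIP interval lay within 10 kb of 50.2%, 55.6% and 43.7% of these classes in the same order. A hotspot lay within 10 kb of 24.5% of both-receptor, 27.7% of RXR-only and 19.9% of VDR-only regions, so that the VDR-only value was near the 19.7% of all intervals. The difference between RXR-only and VDR-only regions was 9.96 points for any interval (4.45 to 15.4), 11.9 points for bZIP intervals (6.18 to 17.5) and 7.74 points for hotspots (2.84 to 12.5). RXR-only regions were higher on 17 of 20 chromosomes for any interval, on 18 of 20 for bZIP intervals and on 16 of 20 for hotspots. All 3 intervals also excluded 0 when widened by the Bonferroni rule for the 18 differences between classes that were computed, down to a lower bound of 0.232 points for hotspots. The lead was not resolved at every distance and hotspot size, and no difference between these settings was tested. Within 5 kb it was 9.53 points for any interval, 7.22 for bZIP intervals and 6.88 for hotspots, all without 0 in the interval. Within 50 kb it was 6.84 points for bZIP intervals (2.62 to 11.1), 2.36 for any interval (-0.916 to 5.74) and 2.84 for hotspots (-2.88 to 8.55). With hotspots of 6 or more factors the lead was 4.46 points. Among regions with no other interval within 1000 bp it was 4.74 points for hotspots, and both of these intervals included 0. Over these 18 differences, 13 had a 95% interval without 0 and 5 had a widened interval without 0.

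**Figure D2:**
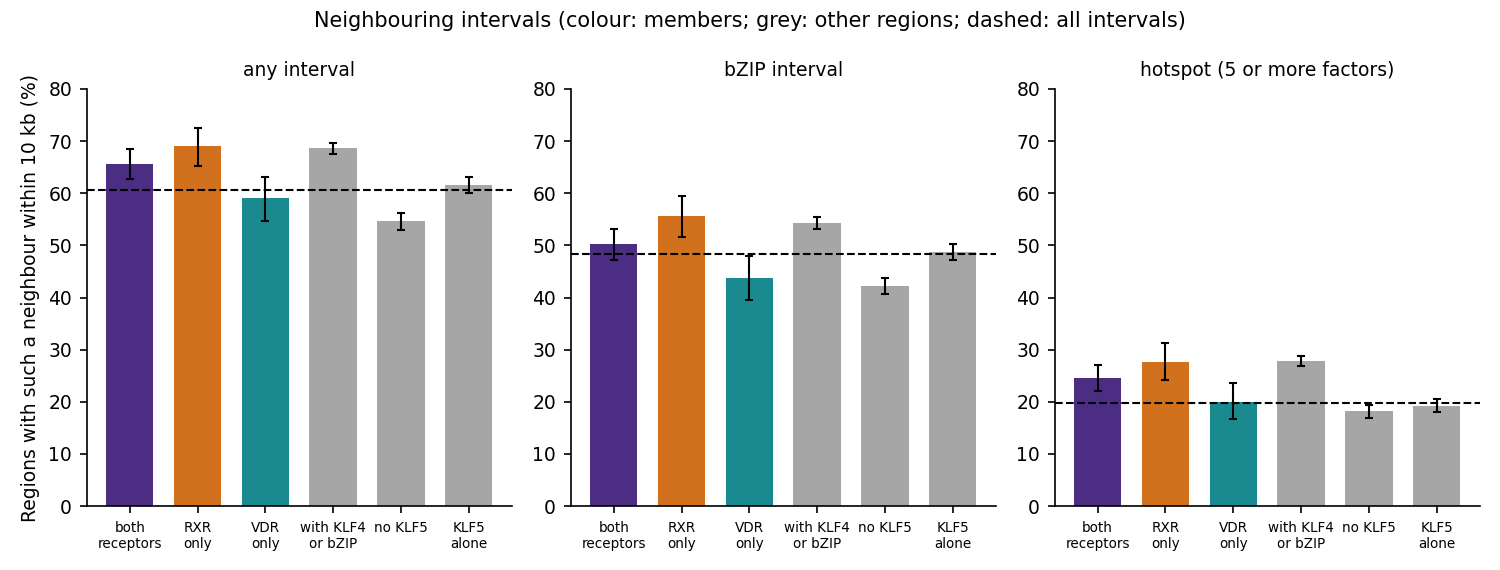
Share of regions with another interval of any kind (left), a bZIP interval (middle) or a hotspot (right) within 10 kb (percent, vertical axis), with exact 95% intervals; colours mark the receptor classes, grey bars the comparison sets and dashed lines all intervals. The RXR-only bars, 69.0%, 55.6% and 27.7%, stand above the VDR-only bars, 59.0%, 43.7% and 19.9%.

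Within 10 kb the order was the same for each bZIP factor taken singly, where no interval of a difference was computed. It did not hold within 50 kb for cJun (56.5% of both-receptor, 53.1% of RXR-only and 51.1% of VDR-only regions) and FOSL2 (44.6%, 50.7% and 45.0%). JunB intervals lay within 10 kb of 34.1% of both-receptor, 39.7% of RXR-only and 28.2% of VDR-only regions. For ATF2 the shares were 28.9%, 34.3% and 25.8%, for ATF7 19.7%, 25.4% and 17.9%, for cJun 23.0%, 26.1% and 20.3%, and for FOSL2 17.97%, 24.5% and 17.0%, always in the order both-receptor, RXR-only and VDR-only. Among all intervals the shares were 27.7% for JunB, 31.3% for ATF2, 22.8% for ATF7, 18.9% for cJun and 20.7% for FOSL2. All 3 classes were thus above the share of all intervals for JunB and cJun, whereas both-receptor and VDR-only regions were below it for ATF2, ATF7 and FOSL2. Some of these values were not resolved from that share. The exact intervals of VDR-only regions for JunB (24.5 to 32.2) and cJun (17.0 to 23.9) included it. That of both-receptor regions for ATF2 (26.3 to 31.7) did so too. KLF4 intervals lay near 23.8% of both-receptor, 28.3% of RXR-only and 22.0% of VDR-only regions, a difference of 6.34 points between the single-receptor classes (1.35 to 11.2) whose widened interval included 0; the share of all intervals was 20.1%. Other KLF5 intervals lay near 48.3% (45.3 to 51.3), 54.7% (50.7 to 58.6) and 43.9% (39.7 to 48.2) of the 3 classes, and 41.8% of all intervals.

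Both-receptor regions had values between those of the single-receptor classes, but most of their differences from RXR-only regions were not resolved. The difference of both-receptor minus RXR-only regions was -3.39 points for any interval (-7.90 to 1.23), -3.16 points for hotspots (-7.53 to 1.10), -3.93 points for RXR intervals (-8.79 to 0.925) and -0.954 points for VDR intervals (-5.78 to 3.83), and for any interval it turned to 1.17 points within 50 kb. For KLF4 intervals it was -4.52 points (-8.90 to -0.258). Both-receptor regions were 5.46 points below RXR-only regions for bZIP neighbours (difference -5.46, -10.3 to -0.571) and 6.45 points above VDR-only regions (1.32 to 11.5). Neither interval excluded 0 once widened, and each included 0 when the distance was 5 kb, with -2.38 and 4.84 points. The lead of both-receptor over VDR-only regions for hotspots, 4.57 points (0.247 to 8.67), included 0 when any of chromosomes 3, 4, 6, 13 or 14 was left out. Without chromosome 2 the lead for any neighbour, 6.57 points in full, was 4.82 points and its interval included 0.

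RXR intervals were also more often near RXR-only regions. RXR intervals lay within 10 kb of 42.6% of both-receptor, 46.6% of RXR-only and 33.4% of VDR-only regions, where all intervals had 32.5%, and RXR-only exceeded VDR-only regions by 13.2 points (7.57 to 18.7), on 18 of 20 chromosomes. Both-receptor regions exceeded VDR-only regions by 9.25 points (4.26 to 14.1). VDR intervals lay near 40.4% of both-receptor, 41.3% of RXR-only and 34.7% of VDR-only regions, where all intervals had 31.3%. RXR-only regions thus exceeded VDR-only regions for VDR neighbours as well, by 6.65 points (1.07 to 12.1), although the widened interval included 0. The receptor state of the single nearest neighbour was taken where it lay within 10 kb. No receptor was listed there for 40.1% of RXR-only and 45.0% of VDR-only regions, the most frequent state in each. RXR without VDR was listed at the nearest neighbour of 18.7% of 434 RXR-only regions and 10.9% of 320 VDR-only regions, 7.73 points apart (2.57 to 12.7). VDR without RXR was listed at the nearest neighbour of 8.53% of RXR-only and 13.1% of VDR-only regions, a difference of -4.60 points (-9.33 to -0.162). Both receptors were listed there for 32.7% of RXR-only and 30.9% of VDR-only regions, with a difference of 1.78 points whose interval included 0 (-4.98 to 8.40). Over all intervals with such a neighbour, it was listed for RXR without VDR in 12.8%, for VDR without RXR in 9.61% and for both in 25.6%. The pattern was similar without KLF5, where RXR without VDR was listed at the nearest neighbour of 17.0% of RXR-only and 9.99% of VDR-only intervals, and VDR without RXR at that of 10.0% of RXR-only and 14.6% of VDR-only intervals.

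Distances showed the same order on a continuous scale. The median distance to the nearest bZIP interval was 9.94 kb for both-receptor, 7.93 kb for RXR-only and 12.2 kb for VDR-only regions, where all intervals had 10.8 kb. For any interval the medians were 4.93, 4.39 and 7.16 kb in that order, where all intervals had 5.996 kb. For hotspots they were 42.5, 37.8 and 48.6 kb, where all intervals had 58.8 kb. The quartiles overlapped widely: the middle 50% of the bZIP distances spanned 2.09 to 24.9 kb for RXR-only regions and 3.42 to 42.2 kb for VDR-only regions. The classes drew together beyond 100 kb, where 93.8% of both-receptor, 94.0% of RXR-only and 91.9% of VDR-only regions had a bZIP interval.

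**Figure D3:**
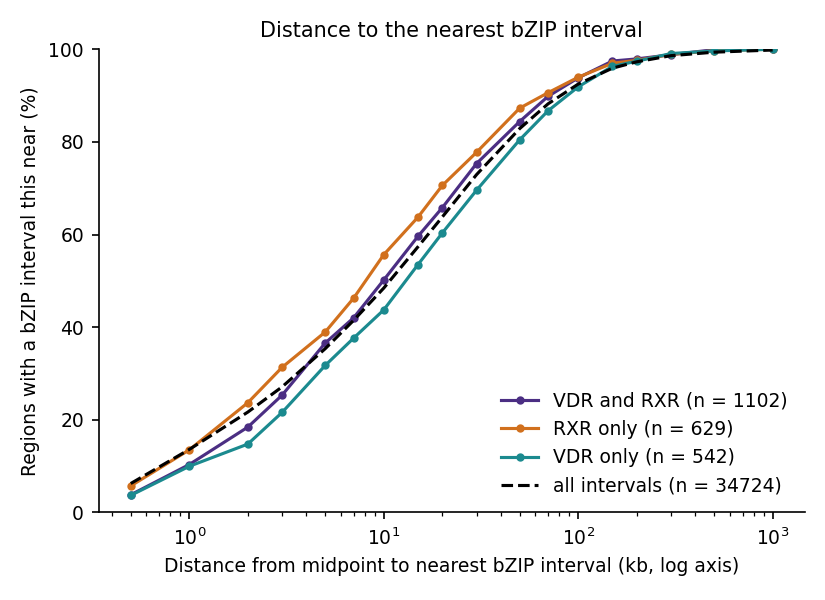
Cumulative share of regions (percent, vertical axis) with a bZIP interval within a given distance of the midpoint (kb, log axis) for the 3 receptor classes and for all intervals. At 10 kb the curves stand at 50.2% for both-receptor, 55.6% for RXR-only, 43.7% for VDR-only regions and 48.4% for all intervals.

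The lead of RXR-only over VDR-only regions was also present where KLF5 was not listed, though it was not resolved for every kind of neighbour. Among 3786 intervals with a receptor but without KLF5, KLF4 and bZIP factors, a bZIP interval lay within 10 kb of 45.4% of RXR-only and 39.5% of VDR-only intervals, a difference of 5.86 points (2.34 to 9.37). The difference was 5.04 points for any interval (1.49 to 8.57) and 4.90 points for hotspots (2.15 to 7.67). For RXR intervals it was 8.95 points (5.60 to 12.3). For KLF4 intervals it was 2.25 points (-0.443 to 4.96) and for VDR intervals 1.77 points (-1.56 to 5.11), both with 0 in the interval. With KLF5 the differences for bZIP intervals, any interval and hotspots were numerically larger, by 6.06 (-0.645 to 12.8), 4.92 (-1.62 to 11.5) and 2.84 points (-2.74 to 8.42). All 3 of these intervals included 0, so the lead was not shown to differ between regions with and without KLF5.

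The regions were more often near hotspots than KLF5 or a receptor without the other. A hotspot lay within 10 kb of 24.3% of the regions, 19.3% of the 4103 intervals with KLF5 and no other factor, and 18.2% of the 3786 receptor intervals without KLF5. The regions were 5.03 points above the first set (2.91 to 7.19; higher on 15 of 20 chromosomes) and 6.11 points above the second (3.98 to 8.28; 20 of 20). They were 3.56 points below the 7566 intervals with KLF5, a receptor and KLF4 or a bZIP factor, at which the share was 27.8% (difference -3.56, -5.56 to -1.50). That last difference included 0 when regions with another interval within 1000 bp were left out (-2.04 points). KLF4 neighbours showed the same steps, with 24.6% of the regions, 19.4% of KLF5-alone intervals, 17.3% of receptor intervals without KLF5 and 27.5% of the intervals with KLF4 or a bZIP factor. By class, the hotspot share of VDR-only regions, 19.9% (16.6 to 23.5), did not stand apart from KLF5 alone. Both-receptor regions had 24.5% and RXR-only regions 27.7%. Without KLF5 the shares were 18.6% at both-receptor, 20.7% at RXR-only and 15.8% at VDR-only intervals. The sets also differ in receptor mix and in the number of listed factors.

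For bZIP neighbours within 10 kb the regions did not stand apart from KLF5 alone: 50.2% of the regions and 48.6% of KLF5-alone intervals had one, a difference of 1.51 points (-1.05 to 4.07). Within 1000 bp the regions were lower, with 11.1% (9.87 to 12.5) against 13.4% (12.4 to 14.5), and no interval of that difference was computed. Receptor neighbours did separate them. A VDR interval lay near 39.3% of the regions and 30.1% of KLF5-alone intervals, 9.14 points apart (6.69 to 11.6), and an RXR interval near 41.5% of the regions and 30.9% of KLF5-alone intervals, 10.6 points apart (8.13 to 13.1) on 20 of 20 chromosomes. Against receptor intervals without KLF5 the regions had more neighbours of every kind compared, by 10.3 points for any interval (7.79 to 12.8) and 7.97 points for bZIP intervals (5.38 to 10.6). Against the intervals with KLF5, a receptor and KLF4 or a bZIP factor they had fewer, with differences of -3.62 points for any interval (-5.86 to -1.41), -4.13 points for bZIP intervals (-6.47 to -1.79) and -2.93 points for RXR intervals (-5.23 to -0.607). The widened interval excluded 0 for any interval and bZIP intervals but not for RXR intervals. Of the 18 differences computed between the regions and the other sets, 16 had a 95% interval without 0 and 13 had a widened one without 0.

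Most regions stood singly. When regions within 10 kb of each other were joined, 2028 stood alone and 245 fell into 118 runs, 109 of them with 2 regions and 9 with 3. Another region of the set lay within 10 kb of 10.8% of the regions (9.53 to 12.1), 11.5% of the intervals with KLF5, a receptor and KLF4 or a bZIP factor (10.8 to 12.2), 8.34% of KLF5-alone intervals, 8.32% of receptor intervals without KLF5 and 8.13% of all intervals. The runs gave 127 pairs of regions next to each other in a run, of which 36 joined both-receptor regions, 33 a both-receptor and an RXR-only region, 19 an RXR-only and a VDR-only region, 16 a pair of RXR-only regions, 16 a both-receptor and a VDR-only region and 7 a pair of VDR-only regions.

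Of the 9 runs of 3, the first 3 by genome position show how the classes could be placed. The run at chr1:45467798-45478111 (mm9) held 3 RXR-only regions. The run at chr1:154967556-154969949 packed a VDR-only and 2 RXR-only regions into 2394 bp. The run at chr2:72875332-72887664 held 3 both-receptor regions over 12333 bp.

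The closest pair of both-receptor regions had midpoints 503 bp apart, at chr3:92213791-92214190 and chr3:92214294-92214693. The closest RXR-only pair, at chr1:78350547-78350946 and chr1:78351350-78351749, was 803 bp apart, and the closest VDR-only pair, at chr17:84665945-84666344 and chr17:84667797-84668196, was 1852 bp apart. At the other extreme, the both-receptor region at chr16:59582635-59583034 lay 615 kb from any other interval. The most isolated VDR-only region, chr2:116243335-116243734, lay 310.0 kb away, and the most isolated RXR-only region, chr17:67433528-67433927, 240.1 kb away.

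The regions were spread over all 20 chromosomes. They made up between 5.07% of the listed intervals on chromosome 10 (123 of 2425; 4.23 to 6.02) and 8.51% on chromosome X (57 of 670; 6.51 to 10.9). As a share of the KLF5 list the lowest value was instead 10.7% on chromosome 11 (8.73 to 12.8), chromosome 10 had 13.1% (11.03 to 15.5), near the 13.3% of all chromosomes, and chromosome X was again highest with 19.8% (15.3 to 24.9). The share of both-receptor regions ran from 41.5% on chromosome 10 (32.7 to 50.7) to 62.2% on chromosome 15 (52.5 to 71.2). The lowest and highest were picked out of 20 values.

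**Figure D4:**
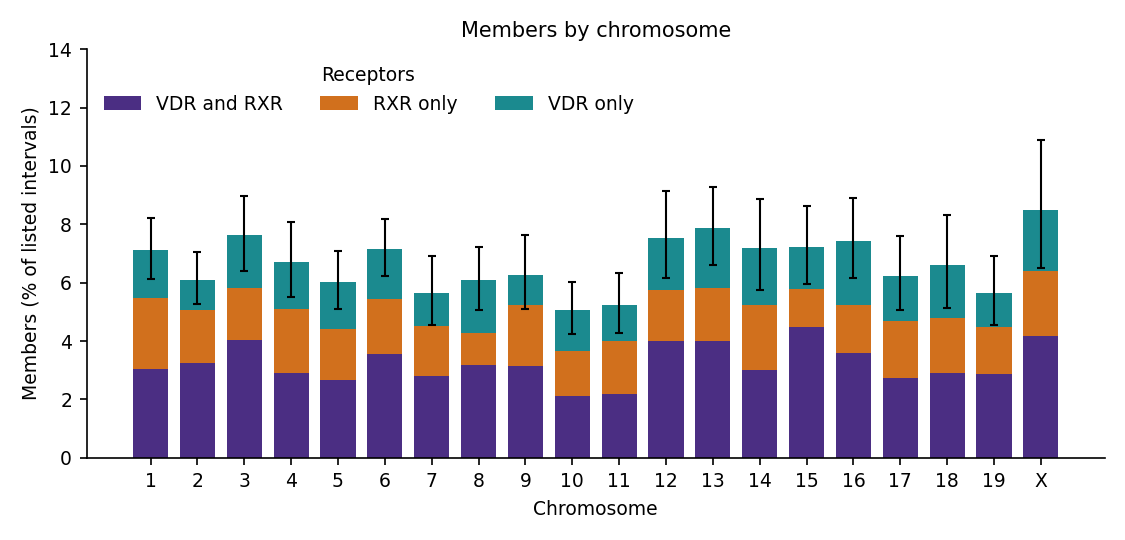
Regions as a share of all listed intervals on each chromosome (percent, vertical axis), stacked by receptor class from both receptors at the bottom to VDR only at the top, with exact 95% intervals of the total. The totals lie between 5.07% on chromosome 10 and 8.51% on chromosome X.

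In the order of rows of the deposited lists, both-receptor regions stood apart from the single-receptor classes, which hold 1 listed factor fewer. All 9 lists gave shared intervals in the same order in 36 of 36 pairs of lists, and this order did not follow the genome; the sources used here do not say what it was sorted by. Intervals with more factors stood earlier: the median position in the KLF5 list was 79.6% of the way down for KLF5 alone, 51.7% for 3 listed factors and 9.35% for all 9. Both-receptor regions, with 3 factors each and so among those 3-factor intervals, had a median position of 44.1% (quartiles 26.7 and 61.3). Intervals with KLF5 and a pair of non-receptor factors, likewise 3 in all, had 59.2%, and those with KLF5, 1 receptor and 1 other factor had 54.9%.

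RXR-only and VDR-only regions stood at nearly the same place in the KLF5 list, with medians of 65.1% and 64.6%. All KLF5 intervals with 2 listed factors, these regions among them, had 67.1%. Other intervals with KLF5 and a single further factor had medians of 64.3% with KLF4, 67.0% with ATF2, 69.95% with ATF7, 75.1% with FOSL2, 75.1% with JunB and 79.6% with cJun. In the receptors' own lists, regions were set beside intervals with the same receptors but no KLF5, which hold 1 listed factor fewer; since intervals with more factors stood earlier in general, these positions say nothing particular to KLF5. In the VDR list, both-receptor regions had a median of 54.1% and both-receptor intervals without KLF5 71.3%, and VDR-only regions had 74.9%, against 83.9% without KLF5. In the RXR list, both-receptor regions had 53.5%, against 71.1% without KLF5, and RXR-only regions had 75.2%, against 84.3% without KLF5. No error is given for these positions, since the meaning of the order is unknown and the lists share it.

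**Figure D5:**
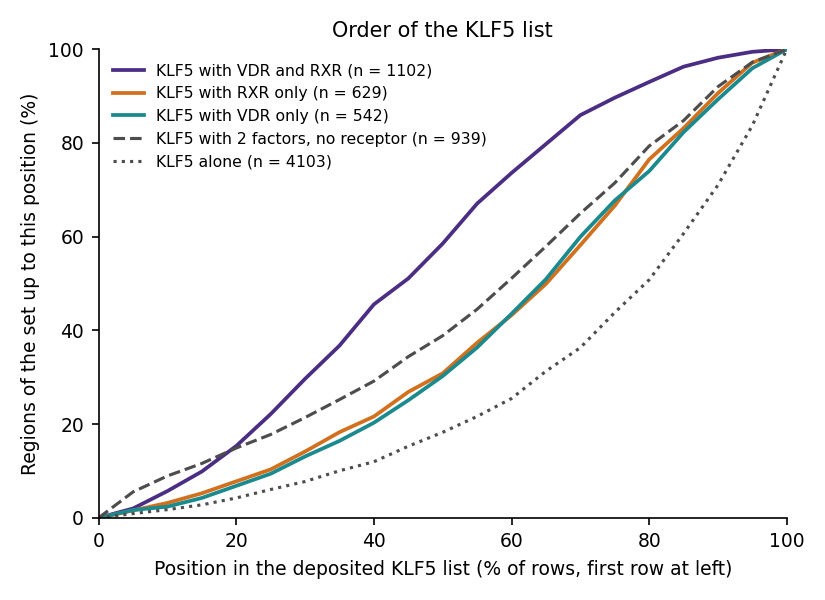
Cumulative share of a set of regions (percent, vertical axis) against position in the deposited KLF5 list (percent of rows, first row at left). The both-receptor curve lies left of the RXR-only and VDR-only curves, which nearly coincide, with medians of 44.1%, 65.1% and 64.6%; KLF5 alone lies farthest right at 79.6%.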

How the data were processed

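The authors deposited 1 interval list per factor, with chromosome, start and end (mm9) as the 3 columns; these positions are neither a score nor a count. Per the submitters' processing notes, FastQC, Bowtie and HOMER were used; the sources used here give no roles, versions or thresholds. Of 30 labelled samples, 9 were used and 21 were not analysed here. Chromosome Y was left out. Lists were joined on identical coordinates. The members, comparison sets and distances were chosen with earlier results of these data known. Shares carry exact Clopper-Pearson intervals, differences Newcombe intervals, and the KLF5 share a Mantel-Haenszel weighted difference, all at 95% and for counting error only, since each factor had 1 library. Only the differences in neighbours within 10 kb, between classes and between the regions and other sets, were also widened by the Bonferroni rule, over 18 each. Differences in KLF5 shares, in the nearest neighbour and at intervals without KLF5 were not widened. Calculations were tested on simulated lists. Named regions were the first 3 of the longest runs and, for each class, the closest pair and the most isolated region. Alternatives changed the distance, the hotspot size, the identity rule and the chromosomes. Python 3.11.15, numpy 2.4.6, pandas 2.3.3, scipy 1.17.1 and statsmodels 0.14.6 were used.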

Additional observations from a re-analysis of the deposited data

How the results depend on the processing

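Single libraries without scores or reads limit every value, and no error covers cultures, antibodies or list thresholds. Of the recomputed values that left out no chromosome, 49 kept their direction and side of 0 (counts and positions: moved little), 16 had intervals that came to include 0, 1 came to exclude it, 2 counts moved and 1 difference turned; the causes were not tested. Differences are in points.

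Within 5 kb, both-receptor minus RXR-only and minus VDR-only regions differed by -2.38 and 4.84 for bZIP neighbours, and 67 runs were found. Within 50 kb, the sign for any neighbour of both-receptor minus RXR-only regions turned to 1.17, and intervals included 0 for RXR-only minus VDR-only regions (2.36 for any interval, 2.84 for hotspots), both-receptor minus VDR-only regions (1.42 for hotspots) and both-receptor minus RXR-only regions (-2.89 for bZIP intervals), with 294 runs. Hotspots of 4 or more factors gave -5.51 for both-receptor minus RXR-only regions, now without 0. Hotspots of 6 or more gave 4.46 for RXR-only minus VDR-only regions and 1.55 for both-receptor minus VDR-only regions, both with 0 in the interval. Among regions with no interval within 1000 bp, hotspot differences were 4.74 for RXR-only minus VDR-only regions, 3.54 for both-receptor minus VDR-only regions and -2.04 for all regions minus those with KLF4 or bZIP factors, and both-receptor minus RXR-only regions had -3.89 for bZIP intervals, all with 0 in the interval. In parts of the KLF5 list, an alternative chosen after seeing the data, RXR-only minus VDR-only regions had 12.4 for hotspots in the first part of 3, and 3.56 for hotspots, 2.36 for any interval and 7.03 for bZIP intervals in the middle part, all with 0 in the interval.

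Leaving out each chromosome in turn (chromosome 10, also planned singly, among them) gave 450 values that stayed likewise and 10 that came to include 0. Both-receptor minus VDR-only regions ranged from 4.82 to 7.57 for any interval, 3.74 to 5.53 for hotspots and 4.93 to 7.83 for bZIP intervals (0 included without chromosome 2 or 13). Both-receptor minus RXR-only regions ranged from -6.35 to -4.60 for bZIP intervals (0 included without 1 or 5). RXR-only minus VDR-only regions ranged from 11.0 to 12.8 for bZIP intervals, always without 0.

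No paired analysis was possible because each factor used had 1 library; the samples that share experiment numbers in the labels were not analysed here. Stricter lists were not run, as the lists hold no score, and gene-start and motif alternatives were not run, as no mm9 genome or annotation was used.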
